A study of Mus musculus with 6 samples.

Results

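Basement membranes and the receptors that hold cells to them were examined in whole brains of mouse embryos at E14.5 that lack Mfsd7c, a membrane transporter now named Flvcr2. The genes were chosen by symbol, as chains, linkers, associated matrix proteins and receptors of the sheet. They comprise 33 of the 52459 rows of the deposited count table, and all 33 were among the 19565 genes abundant enough to be tested. They fall into 5 collagen IV chains, 5 laminin alpha chains, 4 laminin beta and gamma chains, 4 linkers and proteoglycans, 7 other matrix proteins, 6 integrin subunits and 2 further receptors. The libraries came from 3 Mfsd7c-/- knockout (KO1 to KO3) and 3 wild-type (WT1 to WT3) embryos of the C57BL/6 strain, with no treatment named for either group. The labels do not give litters, the sex of the embryos, the part of the gene deleted or how the allele was made, so p-values reflect how these 6 samples vary, which may be technical in part.

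A basement membrane is a thin sheet of matrix under endothelium and epithelium, around muscle and at the pial surface of the brain. Laminins, each a trimer of an alpha, a beta and a gamma chain, polymerise at the cell surface, collagen IV trimers form a second network, and nidogens and the heparan sulfate proteoglycans perlecan and agrin join them. Cells bind the sheet through integrins and dystroglycan. In the embryonic brain it surrounds every vessel, where endothelial cells and pericytes both make it, and it anchors the end-feet of radial glia beneath the meninges. In bulk tissue, fewer cells of a type and less RNA per cell cannot be told apart.

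Depth was even, at 43784619 to 50549673 counts per library, and Mfsd7c had 119, 129 and 130 counts in KO1, KO2 and KO3, against 206, 291 and 259 counts in WT1, WT2 and WT3. Markers of other tissues differed between the libraries. In CPM, a count scaled to the TMM-adjusted size of its library, summed levels of 10 epidermal markers were 464, 27.7 and 88.1 CPM in knockout and 395, 30.8 and 20.8 CPM in wild-type libraries, high in replicate 1 of each group. Summed levels of 10 Hox genes, which are expressed in hindbrain and spinal cord, were 2.36, 0.591 and 2.296 CPM in knockout and 3.92, 99.8 and 33.9 CPM in wild-type libraries, high in WT2 and WT3. Summed levels of 8 radial glia markers were 1982, 2054 and 2038 CPM in knockout and 1974, 2056 and 2039 CPM in wild-type libraries, and those of 8 neuron markers were 6507, 5893 and 6323 CPM in knockout and 6792, 5848 and 5846 CPM in wild-type libraries. Because the epidermal and Hox sums differed between libraries, the count of genes called is also given without the libraries concerned. The part of these markers in the results was not tested.

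The promoter table of RefSeq on GRCm38.p6 held 25 windows for 21 of the 33 genes. Each was read over the 250 bases before the annotated start. Sequences are shown 5′ to 3′ for Itga1, the integrin chain that rose, while Lama4, the other gene that rose, had no window. The other sequences are of genes that did not pass the FDR threshold given below. They are Itgb1, the obligate partner of Itga1, and Nid1, the linker with the lowest p. The last is the short stretch from which the collagen IV genes Col4a1 and Col4a2 are both transcribed. Capitals mark matches, on either strand, to the GC box GGGCGG, the CCAAT box CCAAT and the core of the hypoxia response element ACGTG. The Nid1 run ends where the GENCODE M21 gene starts, and the last line holds bases that lie in the first exon of both collagen genes.
Itga1, chr13:115101965-115102214, minus strand: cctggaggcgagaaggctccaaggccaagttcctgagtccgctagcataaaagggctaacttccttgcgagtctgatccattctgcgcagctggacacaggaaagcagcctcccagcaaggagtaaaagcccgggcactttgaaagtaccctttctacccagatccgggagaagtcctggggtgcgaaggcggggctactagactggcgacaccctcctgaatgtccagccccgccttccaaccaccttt
Itgb1, chr8:128685404-128685653, plus strand: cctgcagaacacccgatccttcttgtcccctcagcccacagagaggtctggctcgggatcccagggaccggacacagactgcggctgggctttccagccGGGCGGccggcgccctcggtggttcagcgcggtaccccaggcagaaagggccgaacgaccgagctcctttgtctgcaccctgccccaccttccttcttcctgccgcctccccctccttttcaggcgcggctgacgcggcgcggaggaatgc
Nid1, chr13:13437352-13437550, plus strand: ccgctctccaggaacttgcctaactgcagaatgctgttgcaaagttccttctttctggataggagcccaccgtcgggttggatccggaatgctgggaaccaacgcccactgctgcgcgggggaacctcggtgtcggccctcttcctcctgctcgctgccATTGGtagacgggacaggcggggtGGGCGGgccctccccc
Col4a1 and Col4a2, chr8:11312805-11312826, plus strand: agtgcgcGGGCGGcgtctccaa
The GC box was present in 17 of the 25 windows (68%), against 32.7% of all 32851 promoter windows. The CCAAT box was present in 10 (40%), against 33.8%. The ACGTG core was present in 1 window (4%), that of Pxdn, against 16.6% of all windows. The Itga1 window held none of the 3 motifs. By gene, the GC box was present for 14 of the 21. The windows of Dag1 overlap and hold the same GC boxes. All 250 bases of the Col4a1 and Col4a2 windows lie in annotated exons, as do 238 for Sparc and 187 for Bcam. So do 241 for the more downstream window of Col18a1 and 143 for that of Dag1. The remaining windows hold 59 or fewer. The motif matches describe the letters of these windows and were not tested.

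In knockout brains 2 of the 33 genes rose, the laminin chain Lama4 and the integrin chain Itga1, and 0 fell. Over all genes tested, 0.624% rose and 0.0358% fell (edgeR quasi-likelihood test, Benjamini-Hochberg FDR of 0.05). An unadjusted edgeR p under 0.05 was reached by 11 of the 33 with higher and 0 with lower values, against 4.63% and 3.46% of all genes. The 3 knockout values lay above all 3 wild-type values for 13 of the 33, against 7.84% of all genes, and below them for 0, against 6.58%. Of the 33, 21 had a log2 fold change above 0, against 47.4% of all genes. The median log2 fold change, knockout over wild-type, was 0.095 over the 33 and -0.0099 over all genes. In the authors' deposited table, 8 of the 33 were higher in knockout at an adjusted p of 0.05 and 0 were lower, against 1.22% of the genes with an adjusted p that were higher there and 0.282% that were lower. Those 8 were Col4a1, Col4a2, Col4a3, Lama4, Lamc1, Nid1, Itga1 and Itgb1, from the same 6 libraries.

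**Figure D1:**
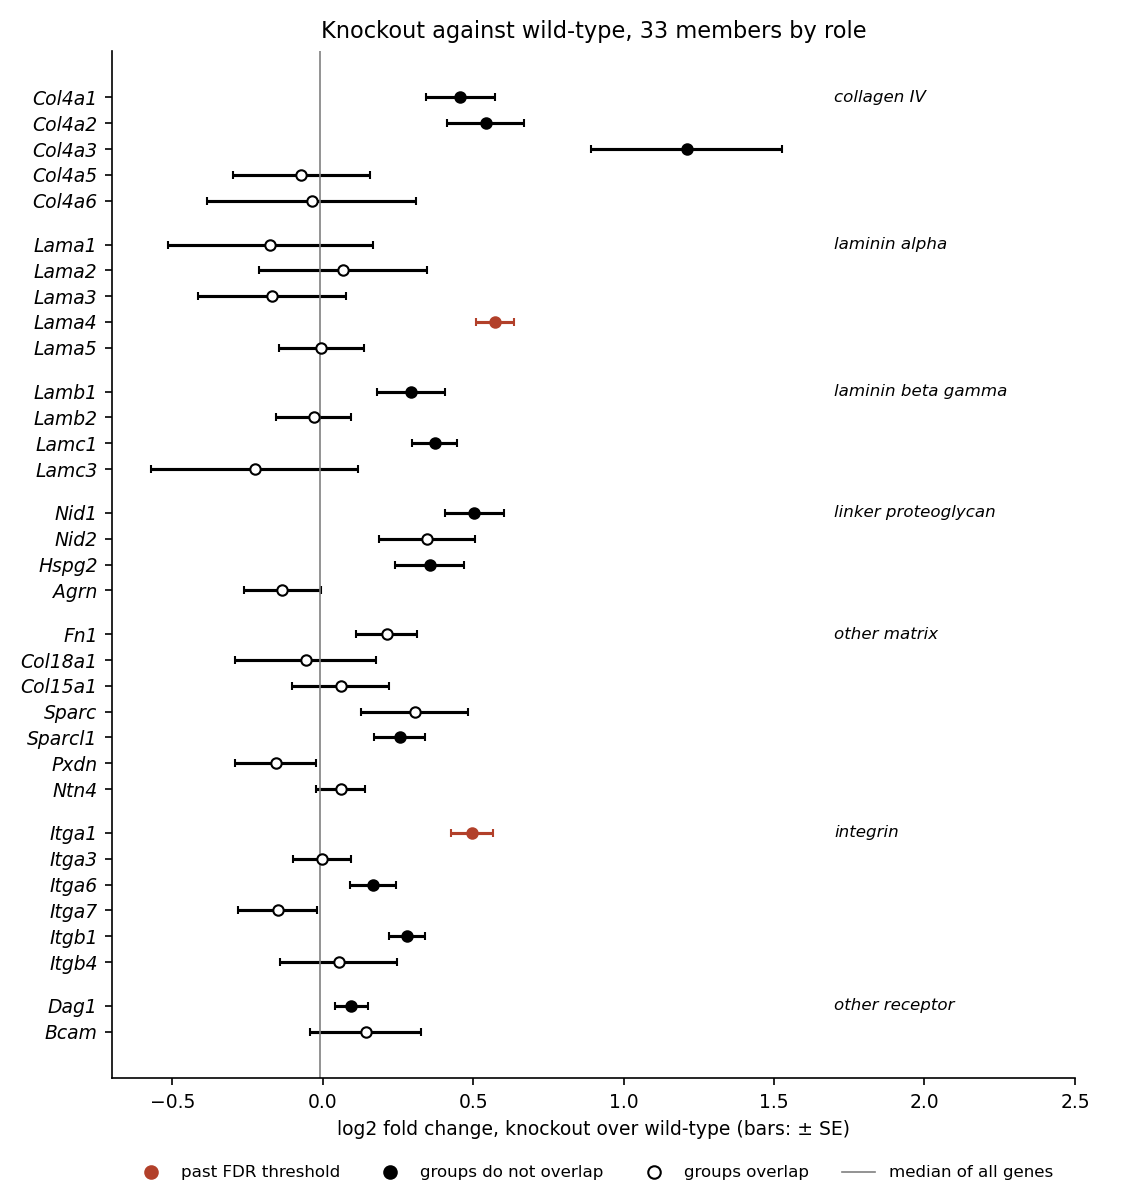
Log2 fold change of each of the 33 genes, knockout over wild-type, with its SE as the bar, grouped by role. Red points, Lama4 and Itga1, passed the FDR of 0.05, filled points are genes whose knockout and wild-type libraries do not overlap, and the grey line is the median of all genes tested.

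How many passed rested on which libraries were included. Leaving out KO1 left 1 of the 33, Lama4, against 0.240% of all genes higher in that fit, and leaving out KO2 left both, against 0.535%. With KO3, WT2 or WT3 left out 0 of the 33 rose, against 0.189%, 0.165% and 0.200% of all genes. With WT1 left out 6 rose, against 1.16%, so that calls over all genes fell and grew in the same fits. Without both libraries high in epidermal keratins, KO1 and WT1, 10 of the 33 rose, against 1.34% of all genes. The 10 were Lama4, Itga1, Lamc1, Col4a1, Col4a2, Nid1, Nid2, Hspg2, Sparc and Itgb1. In that fit 1 fell, Pxdn, against 0.977% of all genes. Without both Hox-expressing libraries, which leaves WT1 alone and assumes that it varies like the others, 0 of the 33 rose, against 0.0774% of all genes.

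Lama4 (ENSMUSG00000019846.11, chr10:38965515-39110188 on GRCm38) encodes the laminin alpha chain typical of vascular endothelium. It stood at 75.3, 69.4 and 77.6 CPM in KO1, KO2 and KO3, against 51.8, 49.03 and 48.6 CPM in WT1, WT2 and WT3. All 3 knockout libraries were higher than all 3 wild-type libraries, with a narrow spread in both groups. The means were 74.1 ± 4.25 CPM in knockout and 49.8 ± 1.76 CPM in wild-type brains (SD, n = 3 each), a log2 fold change of 0.57 ± 0.0635 (SE; adjusted p = 0.00619, edgeR). Its log2 fold change stayed between 0.52 and 0.62 under the 17 alternatives tried. Leaving out KO3, WT2 or WT3 took edgeR's adjusted p past the threshold, to 0.0634, 0.0635 and 0.0532. So did leaving out both Hox-expressing libraries, at 0.126.

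None of the other alpha chains passed. Lama1, a chain of early embryonic and pial basement membranes, was at 24.5, 42.7 and 38.6 CPM in knockout brains, against 23.8, 47.7 and 47.8 CPM in wild-type brains. Lama2, the chain around muscle and of astrocytic end-feet, was at 18.4, 28.8 and 31.5 CPM in knockout brains, against 16.8, 30.7 and 27.7 CPM in wild-type brains. For both, replicate 1 of each group was low and the other libraries were high, so that the groups overlapped. Lama5, which endothelium also makes, was at 18.9, 23.4 and 21.2 CPM in knockout brains, against 16.8, 23.99 and 22.8 CPM in wild-type brains. Lama3, the epidermal chain, was the scarcest alpha chain per length and was at 5.56, 2.72 and 4.07 CPM in knockout brains, against 5.19, 4.61 and 4.07 CPM in wild-type brains. The log2 fold changes of these 4 chains ran from -0.17 for Lama1 to 0.066 for Lama2, with edgeR adjusted p from 0.902 to 0.996.

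Per kilobase of exon, Lama4 took the largest share of the alpha chain signal in each knockout library. Its share of the summed CPM per kb of the 5 alpha chains was 51.7, 40.4 and 44.1% in knockout libraries, against 44.1, 30.3 and 30.9% in wild-type libraries. That of Lama1 was 20.9, 31.01 and 27.3% in knockout libraries, against 25.2, 36.8 and 37.9% in wild-type libraries. WT2 and WT3 were the libraries in which Lama1 exceeded Lama4, and WT1 lay inside the knockout range for both chains. The share of Lama5 was 13.7, 14.4 and 12.7% in knockout libraries, against 15.2, 15.7 and 15.4% in wild-type libraries, lower in each knockout library. The within-library count ratio of Lama4 to Lama5 was 3.99, 2.96 and 3.67 in knockout libraries, against 3.09, 2.04 and 2.13 in wild-type libraries, a difference of 0.56 on the log2 scale (two-sided exact permutation test, p = 0.2, adjusted p = 0.35 over 14 ratios). With 3 against 3 libraries the smallest p this test can give is 0.1.

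Among the beta and gamma chains the pair used by most vascular laminins, Lamb1 and Lamc1, was higher in knockout brains without passing the test. Lamc1, the common gamma chain (ENSMUSG00000026478.14, chr1:153218922-153332786), was at 137, 144 and 155 CPM in KO1, KO2 and KO3, against 103, 119 and 116 CPM in WT1, WT2 and WT3. The groups did not overlap, with a log2 fold change of 0.37 ± 0.0737 (SE; adjusted p = 0.0911, edgeR). Lamb1 was at 93.3, 101 and 114 CPM in knockout brains, against 69.4, 92.1 and 89.5 CPM in wild-type brains, and the lowest knockout library exceeded the highest wild-type library by a small margin. It had a log2 fold change of 0.29 ± 0.114 (SE; adjusted p = 0.539, edgeR). Lamb2, the beta chain of mature and synaptic basement membranes, was at 53.6, 72.7 and 62.4 CPM in knockout brains, against 55.6, 65.6 and 71.4 CPM in wild-type brains and overlapped between the groups. Lamc3, a gamma chain of the pial surface, was at 10.2, 19.1 and 19.3 CPM in knockout brains, against 11.6, 22.4 and 22.9 CPM in wild-type brains, with replicate 1 lowest in both groups. Of beta chain CPM per kb, Lamb1 made up 51.7, 45.98 and 52.8% in knockout libraries, against 43.4, 46.3 and 43.5% in wild-type libraries. Of gamma chain CPM per kb, Lamc3 made up 9.13, 15.3 and 14.4% in knockout libraries, against 13.3, 20.4 and 21.2% in wild-type libraries. Both shares overlapped between the groups, and 6.27% of the exon length of Lamc3 lies under an antisense transcript.

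**Figure D2:**
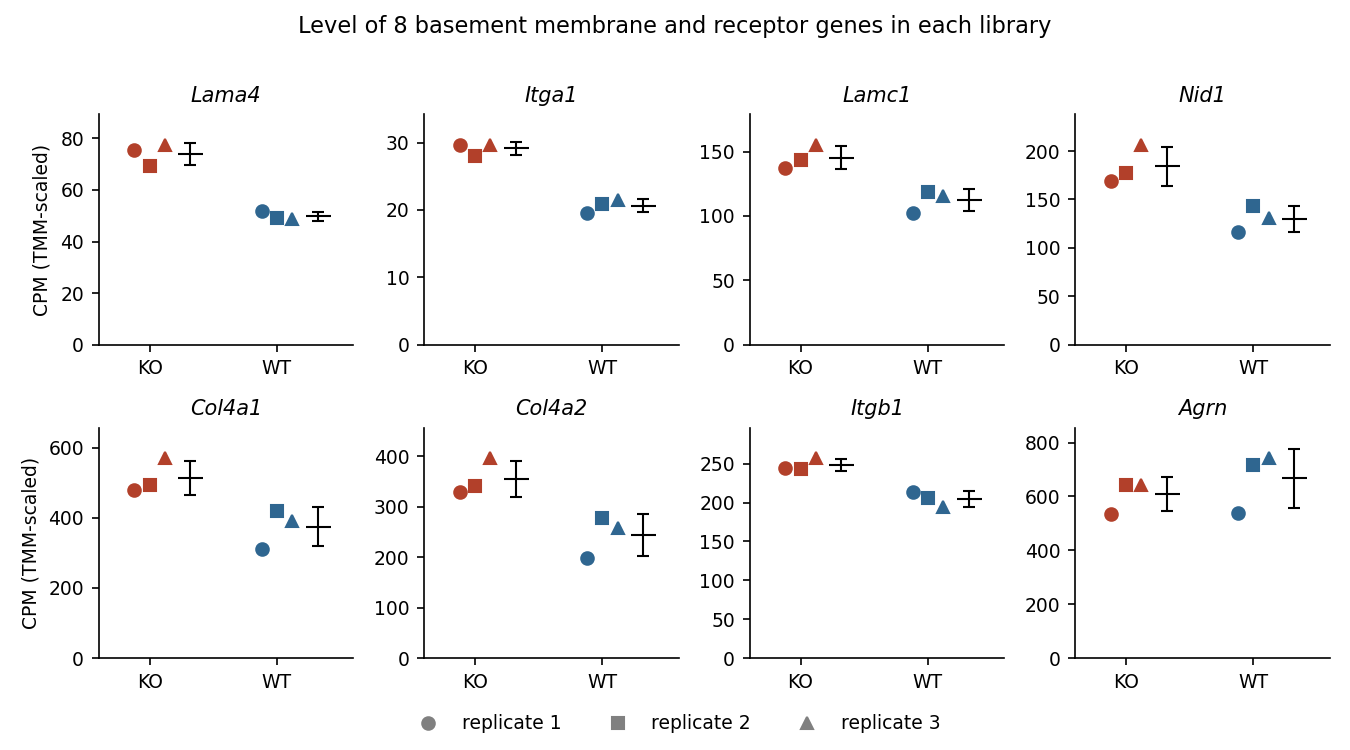
CPM of 8 genes in each library, with knockout at the left and wild-type at the right of each panel. Symbols mark the replicate number, and the black bar and whiskers beside them give the mean and SD. Lama4 and Itga1 passed the test, Agrn overlaps between the groups, and the other 5 lie higher in each knockout library without passing.

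The ubiquitous collagen IV chains Col4a1 and Col4a2 were higher in each knockout library, and the Col4a5 and Col4a6 chains were not. Col4a1 (ENSMUSG00000031502.11, chr8:11198423-11312826, minus strand) was at 479, 492 and 570.3 CPM in KO1, KO2 and KO3, against 312, 419 and 391 CPM in WT1, WT2 and WT3. Col4a2 (ENSMUSG00000031503.13, chr8:11312805-11449287, plus strand) was at 329, 340.2 and 396 CPM in KO1, KO2 and KO3, against 198, 278 and 257 CPM in WT1, WT2 and WT3. For both genes KO3 was the highest library and WT1 the lowest. The log2 fold changes were 0.46 (SE 0.116) and 0.54 (SE 0.127), with edgeR adjusted p = 0.234 for Col4a1 and adjusted p = 0.186 for Col4a2. In the authors' deposited table the adjusted p was 0.00728 for Col4a1 and 0.00167 for Col4a2.

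These genes lie head to head, and the annotated first exons overlap by the 22 bases printed above. The ratio of Col4a1 to Col4a2 counts within a library was 1.46, 1.45 and 1.44 in knockout libraries, against 1.58, 1.51 and 1.52 in wild-type libraries. It was lower in each knockout library, by a difference of -0.087 on the log2 scale (two-sided exact permutation test, p = 0.1, adjusted p = 0.28 over 14 ratios). Of collagen IV CPM per kb, Col4a2 made up 40.7, 39.9 and 40.1% in knockout libraries, against 37.6, 37.6 and 37.4% in wild-type libraries. The exons that the genes share hold 0.295% of Col4a1 and 0.332% of Col4a2 exon length.

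Col4a3, a chain best known from kidney and lung basement membranes, was scarce, with 86, 89 and 165 counts in KO1, KO2 and KO3, against 35, 68 and 48 counts in WT1, WT2 and WT3. In CPM it was at 1.99, 1.75 and 3.44 CPM in knockout brains, against 0.789, 1.35 and 0.958 CPM in wild-type brains. The groups did not overlap, and KO3 was the highest library. It had a log2 fold change of 1.21 ± 0.318 (SE; adjusted p = 0.2596, edgeR), and 5.65% of its exon length lies under an antisense transcript, whose reads cannot be told apart unless counting used strand. Col4a5 was at 42.6, 57.2 and 64.7 CPM in knockout brains, against 40.9, 68.98 and 62.8 CPM in wild-type brains. Col4a6 was at 13.00, 23.1 and 25.6 CPM in knockout brains, against 12.99, 25.1 and 25.2 CPM in wild-type brains. These neighbours are also transcribed head to head, on chromosome X with 1308 bases between their starts, and both were low in replicate 1 of each group. Their log2 fold changes were -0.071 (SE 0.228) and -0.036 (SE 0.347). The share of Col4a5 in collagen IV CPM per kb was 5.19, 6.602 and 6.44% in knockout libraries, against 7.66, 9.2 and 8.999% in wild-type libraries, lower in each knockout library.

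Among the linkers, Nid1 and Hspg2 were higher in each knockout library without passing the test, and Agrn was not. Nid1, which bridges laminin and collagen IV (ENSMUSG00000005397.8, chr13:13437551-13512269), was at 169, 177 and 207 CPM in KO1, KO2 and KO3, against 116, 143 and 130.4 CPM in WT1, WT2 and WT3. No knockout library overlapped a wild-type library. It had a log2 fold change of 0.50 ± 0.0981 (SE; adjusted p = 0.0867, edgeR). Nid2, its paralog, was at 81.3, 109.9 and 111 CPM in knockout brains, against 63.1, 88.4 and 86.1 CPM in wild-type brains, and KO1 lay below WT2 and WT3. Part of Nid2, 8.45% of its exon length, overlaps the antisense coding gene Rtraf. Hspg2, which encodes perlecan, was at 121, 133 and 142 CPM in knockout brains, against 85.5, 118 and 105 CPM in wild-type brains, with a log2 fold change of 0.36 ± 0.114 (SE; adjusted p = 0.421, edgeR). Agrn, the most abundant linker per length, was at 535, 644 and 644 CPM in KO1, KO2 and KO3, against 540.1, 718 and 743 CPM in WT1, WT2 and WT3. It was lowest in replicate 1 of both groups, and it had a log2 fold change of -0.13 ± 0.128 (SE; adjusted p = 0.837, edgeR). The ratio of Nid1 to Nid2 was 2.07, 1.61 and 1.87 in knockout libraries, against 1.84, 1.62 and 1.51 in wild-type libraries and overlapped between the groups.

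The other matrix genes did not pass. Sparc, a collagen-binding protein that aids collagen IV deposition, was the most abundant of the 33 per length and stood at 411, 365 and 417 CPM in KO1, KO2 and KO3, against 426, 277 and 262 CPM in WT1, WT2 and WT3. WT1 was the highest library of all and WT2 and WT3 the lowest, so the groups overlapped and the log2 fold change of 0.31 (SE 0.178) was -0.097 without both Hox-expressing libraries. Leaving out WT1 gave 0.56 (edgeR adjusted p = 0.00418), and leaving out both keratin-high libraries gave 0.54 (edgeR adjusted p = 0.00338). Summed levels of 12 meningeal fibroblast markers, a cell type that also makes Sparc, were 1409, 1193 and 1179.9 CPM in knockout and 1949, 1032 and 1005 CPM in wild-type libraries, again highest in WT1. Their part in the result was not tested. Sparcl1, its relative in radial glia and astrocytes, was at 220.1, 215 and 264 CPM in knockout brains, against 191, 203 and 191 CPM in wild-type brains. The groups did not overlap, with a log2 fold change of 0.26 ± 0.0839 (SE; adjusted p = 0.429, edgeR).

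Fn1, which encodes fibronectin, was at 289.6, 349.6 and 305 CPM in knockout brains, against 297, 236 and 282 CPM in wild-type brains, and WT1 lay above KO1. Pxdn, the peroxidase that crosslinks collagen IV, was at 145, 169 and 165 CPM in knockout brains, against 139, 197 and 199 CPM in wild-type brains. Col18a1, whose C-terminal fragment is endostatin, was at 73.9, 101 and 97.9 CPM in knockout brains, against 65.2, 116 and 103 CPM in wild-type brains. Both were lowest in replicate 1 of each group and highest in WT2 and WT3. Col15a1, a related vascular and muscle collagen, was at 15.8, 15.9 and 19.4 CPM in knockout brains, against 12.4, 19.1 and 17.5 CPM in wild-type brains. Ntn4, a netrin that binds laminin gamma chains, was at 17.04, 16.3 and 16.4 CPM in knockout brains, against 14.97, 16.2 and 16.5 CPM in wild-type brains and varied least of the 33 between libraries. The log2 fold changes of Fn1, Pxdn, Col18a1, Col15a1 and Ntn4 ran from -0.16 to 0.21, with edgeR adjusted p from 0.652 to 0.971.

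The collagen-binding integrin chain Itga1 rose, and the laminin-binding alpha chains did not pass. Itga1 (ENSMUSG00000042284.10, chr13:114953096-115101964, minus strand) pairs with Itgb1 to bind collagen IV and laminin. It stood at 29.7, 28.1 and 29.6 CPM in KO1, KO2 and KO3, against 19.5, 20.9 and 21.5 CPM in WT1, WT2 and WT3. Each knockout library exceeded each wild-type library, and the spread within a group was small. The means were 29.1 ± 0.936 CPM in knockout and 20.6 ± 0.9896 CPM in wild-type brains (SD, n = 3 each), a log2 fold change of 0.50 ± 0.0706 (SE; adjusted p = 0.0194, edgeR). Leaving out KO1, KO3, WT2 or WT3 gave edgeR adjusted p of 0.1101, 0.151, 0.135 and 0.0892, at log2 fold changes of 0.48, 0.48, 0.51 and 0.53. The fit without both Hox-expressing libraries gave 0.147. Gm49395, a coding gene on the same strand, covers 3.68% of the exon length of Itga1.

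Itgb1, the common beta subunit, was at 244, 244 and 257 CPM in KO1, KO2 and KO3, against 214, 206 and 194 CPM in WT1, WT2 and WT3. The groups did not overlap, with a log2 fold change of 0.28 ± 0.0608 (SE; adjusted p = 0.138, edgeR), and in the authors' deposited table its adjusted p was 0.00654. Itga6, a laminin receptor chain of radial glia and endothelium, was at 75.95, 75.3 and 77.3 CPM in knockout brains, against 59.9, 72.5 and 71.4 CPM in wild-type brains, with WT1 lowest. It had a log2 fold change of 0.17 ± 0.0764 (SE; adjusted p = 0.637, edgeR). Itga3, the other laminin receptor chain of neural progenitors, was at 27.8, 27.8 and 33.1 CPM in knockout brains, against 26.7, 30.99 and 31.2 CPM in wild-type brains, and Itga7, the muscle laminin receptor chain, at 5.26, 5.62 and 6.43 CPM in knockout brains, against 6.92, 6.39 and 5.91 CPM in wild-type brains. Both overlapped between the groups. Itgb4, the hemidesmosome chain of epidermis, was at 3.89, 2.86 and 2.65 CPM in knockout brains, against 3.201, 3.202 and 2.65 CPM in wild-type brains, with KO1 highest, and 7.66% of its exon length lies under a non-coding transcript of the other strand. The count ratio of Itga1 to Itga7 was 5.65, 4.99 and 4.61 in knockout libraries, against 2.82, 3.28 and 3.64 in wild-type libraries, a difference of 0.65 on the log2 scale (two-sided exact permutation test, p = 0.1, adjusted p = 0.28 over 14 ratios). Summed levels of 12 skeletal muscle markers were 22.7, 17.3 and 11.2 CPM in knockout and 48.6, 17.6 and 14.4 CPM in wild-type libraries, and their part in the Itga7 values was not tested.

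Outside the integrins, Dag1 encodes dystroglycan, which binds laminin alpha chains through its sugar chains. It stood at 183, 183 and 194 CPM in KO1, KO2 and KO3, against 179.6, 168 and 176 CPM in WT1, WT2 and WT3. The groups did not overlap, and it had a log2 fold change of 0.095 ± 0.0561 (SE; adjusted p = 0.722, edgeR). Bcam, a receptor for the Lama5 chain, was at 17.1, 12.1 and 13.9 CPM in knockout brains, against 16.3, 12.6 and 10.2 CPM in wild-type brains, highest in replicate 1 of each group. It had a log2 fold change of 0.14 ± 0.184 (SE; adjusted p = 0.888, edgeR).

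For many of the 33 genes, libraries of the same genotype differed widely. KO1 and WT1 were the 2 lowest libraries for 13 of the 33 genes (39.4%), against 15.5% of all genes tested. The 13 were Col4a5, Col4a6, Lama1, Lama2, Lama5, Lamb2, Lamc3, Nid2, Agrn, Col18a1, Col15a1, Pxdn and Itga3, and 0 of them passed the genotype test in all 6 libraries. Among these the highest library exceeded the lowest most, 2.26-fold for Lamc3, 2.01-fold for Lama1 and 1.97-fold for Col4a6. WT1 was the lowest of all 6 libraries for 21 of the 33, against 20.7% of all genes. Lama3 and Bcam showed the reverse order, with replicate 1 of both groups highest, as were the epidermal markers. The part of the epidermal marker difference in these values was not tested.

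**Figure D3:**
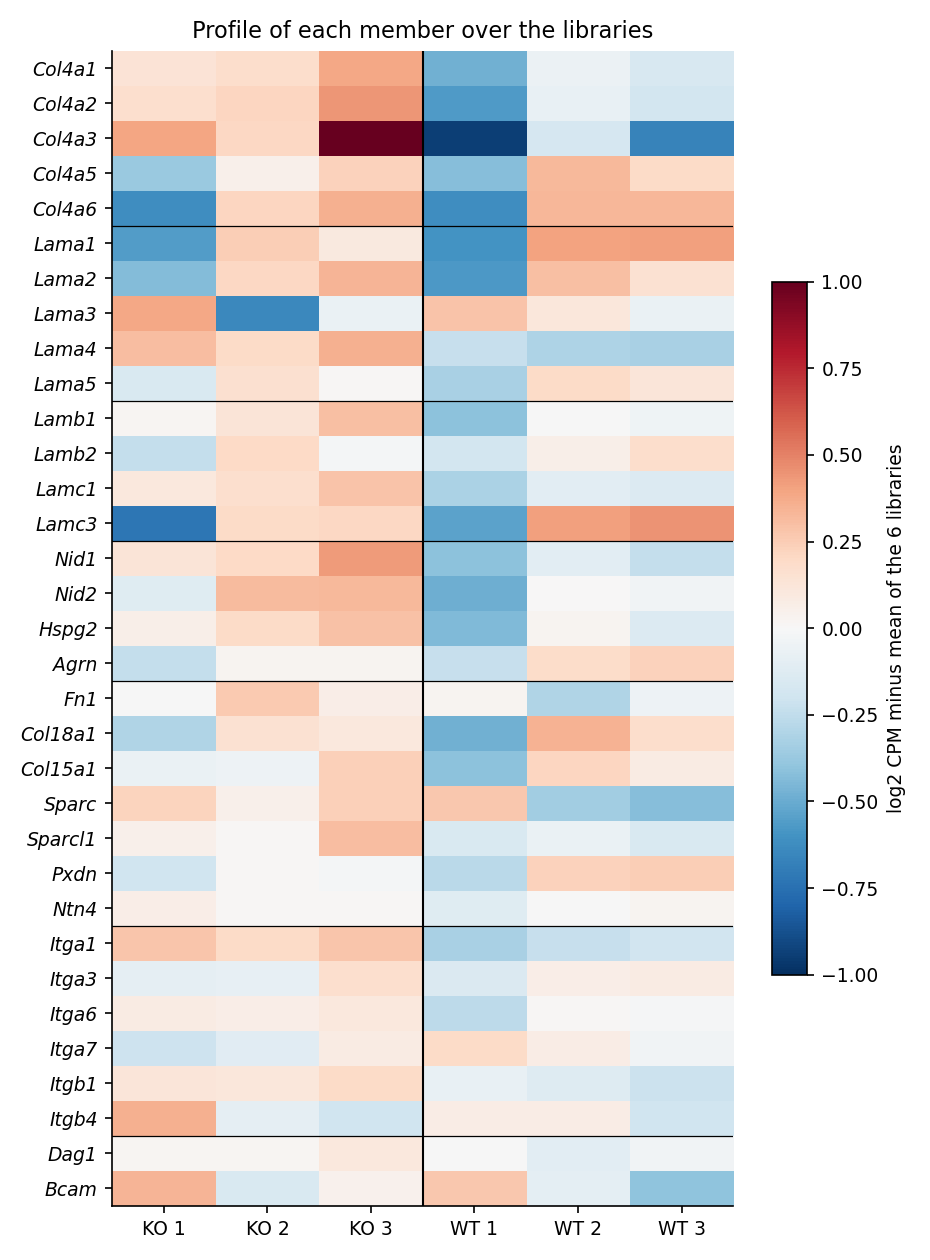
Heat map of log2 CPM minus the mean of the 6 libraries for each gene, with knockout libraries in the left columns and wild-type libraries in the right columns, and lines between roles. Blue cells under KO 1 and WT 1 mark the 13 genes lowest in those libraries, while Lama4 and Itga1 are red in each knockout and blue in each wild-type library.

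Leaving out pairs of libraries moved the fold changes as follows. Lama4 had a log2 fold change of 0.59 without both keratin-high libraries and 0.52 without both Hox-expressing libraries, and Itga1 had 0.45 and 0.58. Col4a1 had 0.39 and 0.72 in the same fits. The 13 genes were listed for their low values in KO1 and WT1, so a fit that keeps WT1 alone of the wild-type libraries raises their fold changes by construction. Of the 13, Lama2, Nid2 and Col15a1 had log2 fold changes above 0 with all 6 libraries, and the other 10 had values below 0 that turned above 0 without WT2 and WT3. Lama2 had 0.047 and Nid2 0.34 without the keratin-high libraries, and they had 0.65 and 0.68 without the Hox-expressing ones.

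**Figure D4:**
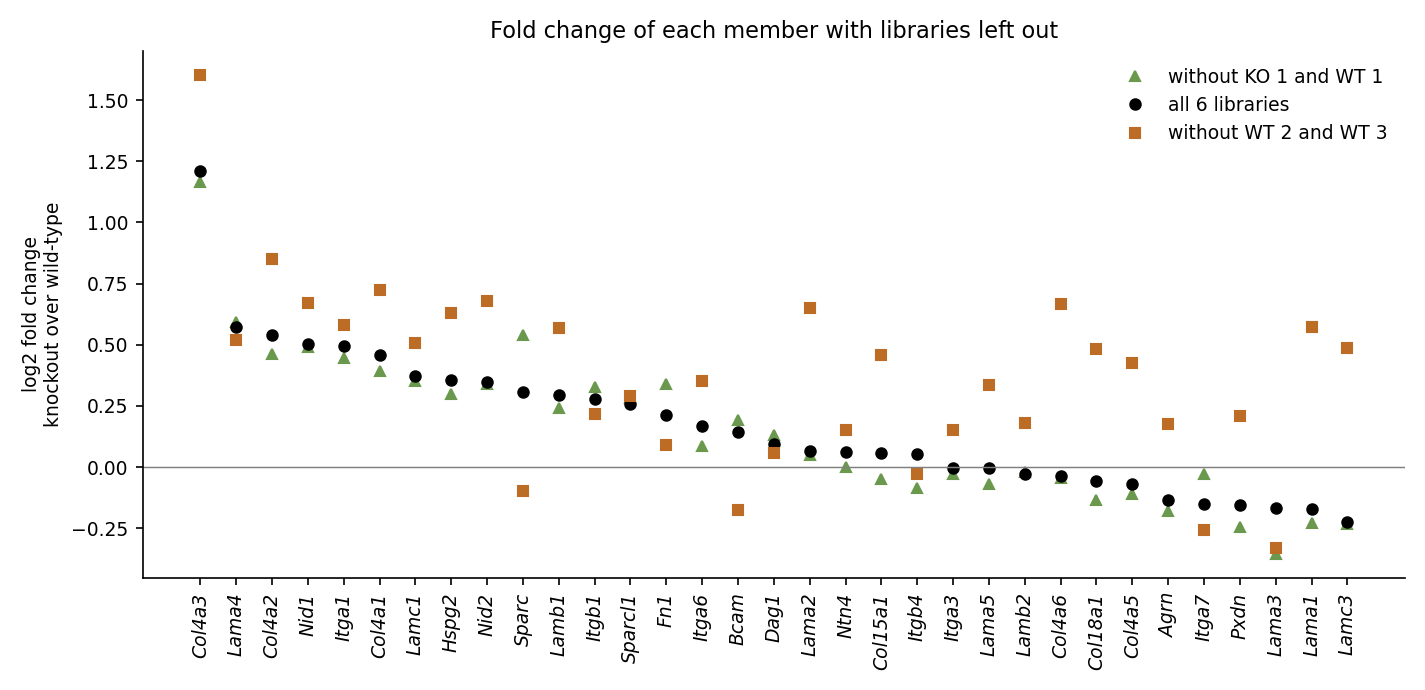
Log2 fold change of each gene, knockout over wild-type, without KO1 and WT1 (green triangles), with all 6 libraries (black circles) and without WT2 and WT3 (brown squares), ordered by the value with all 6. The brown squares of Col4a6, Lama1, Lama2 and Lamc3 lie well above their black circles, while the 3 symbols of Lama4 lie close together.

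Part of the endothelial marker list was higher in knockout brains. Summed levels of 12 of them were 464, 453 and 510.3 CPM in KO1, KO2 and KO3, against 289.6, 346 and 339.8 CPM in WT1, WT2 and WT3. Of the 12, 6 rose, Pecam1, Flt1, Emcn, Cd34, Eng and Robo4, and 6 did not pass. Cdh5, Kdr, Tie1, Erg and Esam had log2 fold changes of 0.19, 0.15, 0.18, 0.15 and 0.45, and Tek, at -0.49 (SE 0.114), was lower in each knockout library. The list therefore did not move as a whole, and ratios to its sum depend on which endothelial genes it holds. Summed levels of 10 mural cell markers were 207, 236 and 225 CPM in knockout and 290.4, 299.7 and 290.4 CPM in wild-type libraries, lower in each knockout library. Of the 10, 1 fell, Rgs5, and without it the other 9 summed to 170.1, 192 and 187 CPM in knockout and 185, 203 and 206 CPM in wild-type libraries, which overlap. None of these markers was at 0 in all 6 libraries. Summed collagen IV was at 867, 914 and 1060.3 CPM in knockout and 565, 792 and 737 CPM in wild-type libraries. Relative to the endothelial sum in the same library, collagen IV counts were 1.87, 2.02 and 2.08 in knockout libraries, against 1.95, 2.29 and 2.17 in wild-type libraries, a difference of -0.10 on the log2 scale (two-sided exact permutation test, p = 0.3, adjusted p = 0.35 over 14 ratios). For laminins the same ratio was 0.941, 1.11 and 1.03 in knockout libraries, against 1.22, 1.32 and 1.33 in wild-type libraries, a difference of -0.33 on the log2 scale (two-sided exact permutation test, p = 0.1, adjusted p = 0.28 over 14 ratios). For linkers it was 1.95, 2.35 and 2.16 in knockout libraries, against 2.78, 3.09 and 3.13 in wild-type libraries, a difference of -0.48 on the log2 scale (two-sided exact permutation test, p = 0.1, adjusted p = 0.28 over 14 ratios). For integrins it was 0.834, 0.846 and 0.797 in knockout libraries, against 1.14, 0.985 and 0.9603 in wild-type libraries, a difference of -0.31 on the log2 scale (two-sided exact permutation test, p = 0.1, adjusted p = 0.28 over 14 ratios). Laminins, linkers and integrins were thus lower per endothelial marker count in each knockout library, and collagen IV overlapped. In CPM the integrin sum itself was higher in each knockout library, at 387, 383 and 406 CPM, against 330, 340 and 326 CPM in wild-type libraries. Laminin alpha chains summed to 143, 167 and 173 CPM in knockout and 114, 156 and 151 CPM in wild-type libraries. Beta and gamma chains summed to 294, 336 and 351 CPM in knockout and 239, 299 and 300 CPM in wild-type libraries. Both laminin sums overlapped between the groups. The linker sum was mostly Agrn, at 535, 644 and 644 CPM of 906, 1064 and 1104 CPM in knockout libraries. In wild-type libraries Agrn was 540, 718 and 743 CPM of 805, 1068 and 1064 CPM. The linkers Nid1, Nid2 and Hspg2 had log2 fold changes above 0. Several genes in these sums are also made outside vessels, and the part of endothelial content in the results was not tested.

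Per length, the genes kept nearly the same order in both groups. Sparc led with a mean CPM per kb of exon of 105 in knockout and 84.9 in wild-type brains. Col4a1 followed Sparc and Sparcl1 in knockout brains, at 68.9 in knockout and 50.1 in wild-type brains, and Agrn was at 65.5 in knockout and 71.8 in wild-type brains. Summed per length, collagen IV chains were at 134 CPM per kb in knockout and 98.3 CPM per kb in wild-type brains. Laminin alpha, beta and gamma chains were at 13.6, 20.7 and 20.2 CPM per kb in knockout brains, against 12.1, 19 and 16.7 CPM per kb in wild-type brains, so alpha chain message was the least abundant of the 3 classes in both groups. The least abundant genes were Itgb4, with a mean CPM per kb of 0.447 in knockout and 0.4304 in wild-type brains, Lama3, with 0.383 in knockout and 0.4303 in wild-type brains, and Col4a3, with 0.2405 in knockout and 0.104 in wild-type brains. Neighbours in this order, such as Nid1 and Fn1 in knockout brains, overlapped between libraries.

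**Figure D5:**
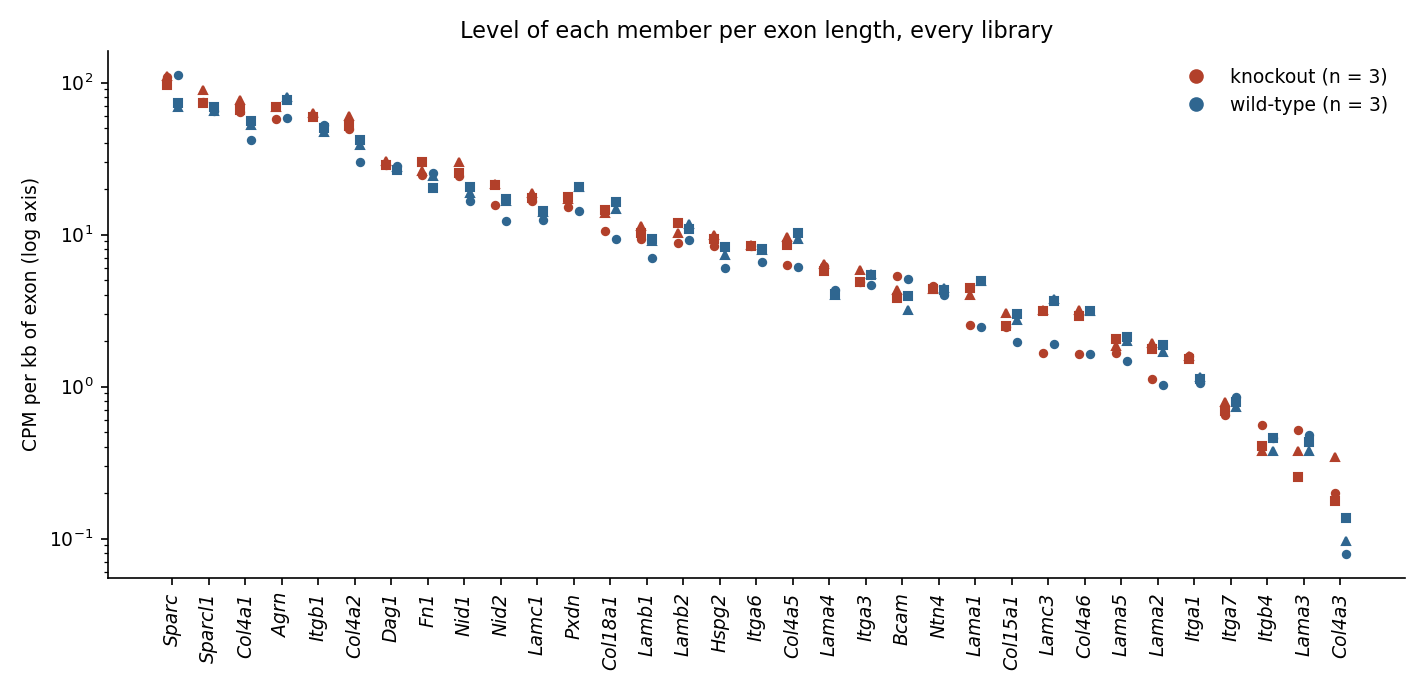
CPM per kb of exon of each gene in every library, on a log axis, with knockout points left of wild-type points and genes ordered by the knockout mean. Symbols mark the replicate number as in the panels of 8 genes, and levels span from Sparc to Col4a3.

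Further lists of pathway genes are read against the 0.624% of all genes that rose and the 0.0358% that fell. Counts at an unadjusted edgeR p under 0.05 are read against 4.63% of all genes higher and 3.46% lower. Of 28 tested genes for other basement membrane components, 0 rose and 0 fell in edgeR. DESeq2 called 2 higher, against 0.737% of the 34055 genes with a count, a share that includes any without an adjusted p. In the authors' deposited table, 1.22% of the genes with an adjusted p were higher. An unadjusted edgeR p under 0.05 was reached by 3 with higher and 1 with lower values. The lowest p was that of Vwa1, a perlecan-binding matrix protein, at 33.1, 27.8 and 31.9 CPM in knockout brains, against 22.5, 22.9 and 19.9 CPM in wild-type brains, with a log2 fold change of 0.51 ± 0.0919 (SE; adjusted p = 0.0616, edgeR). The other matrix receptors had 2 of 22 higher and 0 lower. Itga4, a fibronectin receptor chain, was at 29.2, 24.6 and 31.9 CPM in knockout brains, against 12.9, 16.2 and 15.8 CPM in wild-type brains, with a log2 fold change of 0.94 ± 0.122 (SE; adjusted p = 0.0123, edgeR). Itgb3, which pairs with the alpha-v chain, was at 7.602, 5.796 and 6.84 CPM in knockout brains, against 3.95, 3.64 and 3.27 CPM in wild-type brains, with a log2 fold change of 0.90 ± 0.151 (SE; adjusted p = 0.0416, edgeR). Leaving out KO1, KO3, WT2 or WT3 brought the 2 to 0, and leaving out WT1 brought them to 3.

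Enzymes that fold and crosslink collagen had 3 of 20 higher and 0 lower. They were the prolyl hydroxylase P4ha1 at 71.2, 60.1 and 93.7 CPM in knockout brains, against 31.5, 32.3 and 34.8 CPM in wild-type brains, the lysyl hydroxylase Plod2 at 39.4, 42.2 and 48.4 CPM in knockout brains, against 23.3, 29.8 and 28.2 CPM in wild-type brains, and the lysyl oxidase Loxl2, known to crosslink collagen IV, at 26.2, 19.5 and 27.9 CPM in knockout brains, against 11.6, 8.75 and 8.598 CPM in wild-type brains. Their log2 fold changes were 1.19 (SE 0.148), 0.68 (SE 0.111) and 1.35 (SE 0.164), with edgeR adjusted p of 0.0123, 0.0372 and 0.009902. The 3 became 1 without KO1 or KO3 and 0 without WT2 or WT3. Of 13 enzymes that glycosylate dystroglycan, 0 rose and 0 fell, and 0 had an unadjusted edgeR p under 0.05. DESeq2 also called 0, and Dpm2, which serves the synthesis of the mannose donor, had the lowest p at -0.14 (SE 0.0629) on the log2 scale, lower in each knockout library. Of 15 genes of the integrin adhesion machinery, 0 passed in edgeR or DESeq2. An unadjusted edgeR p under 0.05 was reached by 2 with higher and 1 with lower values. Those with higher values were Fermt2 and Lims1, each at a log2 fold change of 0.18, and the lower was Lims2. Lims2, an adaptor of the integrin-linked kinase complex, was at 1.04, 0.828 and 0.939 CPM in knockout brains, against 1.62, 1.63 and 1.596 CPM in wild-type brains, with a log2 fold change of -0.79 ± 0.202 (SE; adjusted p = 0.243, edgeR). The median log2 fold change was -0.027 for other components, 0.081 for other receptors, 0.070 for collagen enzymes, -0.047 for dystroglycan enzymes and 0.090 for adhesion machinery.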

How the data were processed

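Whole brains of 3 knockout and 3 wild-type embryos were sequenced. The deposited table holds raw read counts by gene symbol, as whole numbers show. The submitters' processing notes name STAR 2.5.2a, featureCounts and DESeq2 1.12.4, and list mm10 and hg19 without roles. For annotation, strand and shared reads the setting was not given in the sources used. Per the file headers, the authors' DESeq2 table holds a mean normalized signal, log2 fold changes, a test score, p-values and adjusted p-values.

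Counts were filtered with filterByExpr, scaled by TMM and tested with the robust quasi-likelihood test of edgeR 4.0.16 in R 4.3.3, knockout over wild-type, with Benjamini-Hochberg adjustment over all genes. The SE is the size of the log2 fold change divided by the square root of the F statistic. CPM use TMM-scaled library sizes. Levels per length divide by the union of GENCODE M21 exons, where all 33 symbols matched. The common biological coefficient of variation was 15.3%. Counting error is small against it except for scarce genes such as Col4a3. Every pair of replicates differed by more than counting noise.

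The 33 genes, the lists and the alternatives were chosen with earlier results of these data known. Values per library are given for each gene past the threshold and, in each role, for the most abundant, the lowest p-value and those whose groups do not overlap. Alternatives were 2 other scalings (DESeq2, upper quartile), 2 other low-count filters, limma-voom 3.58.1, the Wald test of DESeq2 1.42.0, a sex term, a replicate block, a Krt5 covariate, each library left out, and the keratin-high or Hox-expressing libraries left out. Of the listed symbols, Ntn3, Rxylt1 and Mia2 had no row of that name and were not used here.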

Additional observations from a re-analysis of the deposited data

How the results depend on the processing

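Against 129 genes and 2 of the 33 called, no low-count filter gave 211 and 5, the DESeq2 Wald test 309 and 8, the sex term, which fits WT2, the 1 female library by Xist, alone and so repeats its omission, 37 and 0, the Krt5 covariate 323 and 4, the fit without both keratin-high libraries 459 and 10, with 1 of the 33 lower, and that without both Hox-expressing libraries 20 and 0. Over all genes, 0.558% were called higher with no low-count filter, 0.737% with the DESeq2 Wald test and 0.174% with the sex term. The DESeq2 share is over 34055 genes, with or without an adjusted p. The Krt5 covariate gave 1.3%, and the fit without both keratin-high libraries 1.34%. DESeq2 size factors, upper-quartile factors, a 1 CPM minimum and limma-voom each called Lama4 and Itga1 and no other member. With any 1 library left out there were 36 to 388 genes, 0 to 6 of the 33 higher, 0 to 1 other components, 0 to 3 other receptors and 0 to 3 collagen enzymes. All-gene shares called higher in those fits ran from 0.165% to 1.16%. DESeq2 called 2 other components, 4 other receptors and 5 collagen enzymes higher. The share beside these is 0.737% of those 34055 genes, or 1.22% of the genes with an adjusted p in the authors' deposited table. The causes were not tested.

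Replicate numbers were not taken to pair the libraries, since deviations from the group means correlated at 0.587, 0.3096 and 0.034 for numbers 1, 2 and 3, and KO2 deviated most like WT3 (0.478). With a replicate block 282 genes were called, and 8 of the 33 were higher, against 1.08% of all genes higher.

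The sign of the log2 fold change turned under some settings for genes that had not passed. With the DESeq2 Wald test the values were 0.0010 for Itga3. With the Krt5 covariate the values were 0.12 for Col4a5, 0.27 for Col4a6, 0.15 for Lama1, 0.13 for Lama5, 0.091 for Lamb2, 0.095 for Lamc3, 0.15 for Col18a1, 0.045 for Itga3, -0.058 for Itgb4 and -0.033 for Bcam. With limma-voom the values were 0.0046 for Lama5. With no low-count filter the values were 0.0035 for Lama5 and 0.0052 for Itga3. With the replicate block the values were 0.0052 for Lama5. With the sex term the values were 0.080 for Col4a5, 0.11 for Col4a6, 0.093 for Lama5, 0.11 for Col18a1 and 0.030 for Itga3. Without both Hox-expressing libraries the values were 0.43 for Col4a5, 0.67 for Col4a6, 0.57 for Lama1, 0.34 for Lama5, 0.18 for Lamb2, 0.49 for Lamc3, 0.17 for Agrn, 0.48 for Col18a1, -0.097 for Sparc, 0.21 for Pxdn, 0.15 for Itga3, -0.028 for Itgb4 and -0.17 for Bcam. Without both keratin-high libraries the values were -0.049 for Col15a1 and -0.086 for Itgb4.

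Without single libraries, log2 fold changes ran from -0.26 to 0.082 for Col4a5, from -0.29 to 0.21 for Col4a6, from -0.44 to 0.032 for Lama1, from -0.15 to 0.27 for Lama2, from -0.44 to 0.061 for Lama3, from -0.15 to 0.094 for Lama5, from -0.15 to 0.073 for Lamb2, from -0.48 to 0.020 for Lamc3, from -0.26 to 0.11 for Col18a1, from -0.10 to 0.19 for Col15a1, from -0.092 to 0.041 for Itga3, from -0.13 to 0.16 for Itgb4 and from -0.0027 to 0.33 for Bcam.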
